A study of Mus musculus with 9 samples.

Results

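The cluster of miR-322, miR-503, miR-351, miR-542 and miR-450 is a group of microRNA (miRNA) hairpins transcribed from one strand of the mouse X chromosome, and 10 of its mature miRNAs were followed here in quadriceps muscle lacking Mbnl1 or Mbnl2. The 10 members were taken by name, with earlier results of these data known: mmu-miR-322-5p, mmu-miR-322-3p, mmu-miR-503-5p, mmu-miR-351-5p, mmu-miR-351-3p, mmu-miR-542-3p, mmu-miR-542-5p, mmu-miR-450a-5p, mmu-miR-450b-5p and mmu-miR-450b-3p. All 10 were among the 1966 mature miRNAs of the count table. MBNL1 and MBNL2 are muscleblind-like RNA-binding proteins that control alternative splicing, and the comparisons ask which miRNAs respond to the loss of either. Small RNA was sequenced from 9 mice, 3 per group, which the labels give as 90 days old, while the study's text gives a slightly different age. WT mice, which the study's text calls littermates, were C57BL/6J with both Mbnl1 and Mbnl2 intact (Mbnl1+/+ Mbnl2+/+). Mbnl1KO mice, also C57BL/6J, carried Mbnl1 ΔE3/ΔE3 with Mbnl2+/+. Mbnl2KO mice carried Mbnl1+/+ on the B6.C-Tg(CMV-cre)1Cgn/J background, in which a CMV promoter drives Cre broadly, so effects of Mbnl2 loss and of this background cannot be told apart. Their Mbnl2 genotype was labelled ΔE2/ΔE2, ΔE2/ΔE3 and ΔE2/ΔE4 in replicates 1, 2 and 3, whereas the study's text names Mbnl2 dE2/dE2 alone for these mice, so whether the replicates differ in allele is not settled. The labels do not give the sex of the mice, and the cluster is X-linked.

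Libraries held 4761271 to 6277018 counted reads, of which miR-1a-3p, the most abundant miRNA of striated muscle, took 69.7% to 71.3% in WT mice, 61.4% to 68.6% in Mbnl1KO mice and 67.2% to 73.7% in Mbnl2KO mice, and 909 miRNAs had a count in at least 1 library. Of 7 miRNAs known from striated muscle, the labelled tissue, 6 had counts and miR-486a-5p was listed at 0. The cause of this 0 was not tested, and it need not mean that the miRNA was absent. The deleted genes are not measured by small RNA, so the genotype labels could not be checked against these counts. Summed after TMM scaling of read counts relative to library size (CPM), the striated muscle miRNAs made 796106 to 846736 CPM in WT mice, 568637 to 729068 CPM in Mbnl1KO mice and 694800 to 959047 CPM in Mbnl2KO mice. The Mbnl1KO libraries lay below the WT libraries in this sum, while 5 of these miRNAs were tested one by one, of which 2 (miR-206-3p and miR-133b-3p) rose and 0 fell in Mbnl1KO against WT, beside 33.1% of all tested miRNAs called in that comparison. Replicates of a group differed by more than sampling noise.

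A hairpin yields a 5p and a 3p mature miRNA, of which one usually enters the silencing complex more often, and bases 2 to 8 of the mature miRNA, the seed, pair with target mRNAs. The cluster is known for its induction when myoblasts leave the cell cycle and differentiate. There, miR-322 (the mouse counterpart of human miR-424) and miR-503 lower the phosphatase Cdc25A, and miR-351 acts on myoblast proliferation. In the GENCODE annotation of GRCm39 the 7 hairpins lie on the minus strand of chromosome X within 6.35 kb (chrX:52136874-52143226). In the order of transcription they are Mir322 (chrX:52143132-52143226), Mir503 (chrX:52142861-52142931), Mir351 (chrX:52142132-52142230), Mir542 (chrX:52138280-52138364), Mir450-2 (chrX:52137176-52137244), Mir450-1 (chrX:52137031-52137121) and Mir450b (chrX:52136874-52136955). Mir322, Mir503 and Mir351 overlap an exon of a transcript of the non-coding host gene Mir503hg, with 200 and 630 bases between them. A gap of 3767 bases separates Mir351 from Mir542, and the hairpins beyond this gap overlap no exon or intron of another gene on their strand.

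The mature sequences of all 10 members were found in RefSeq (GRCm38.p6), as were 1675 of the 1966 names of the table. The members whose levels or arms the results turn on are shown 5′ to 3′, with the seed in capitals.

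mmu-miR-322-5p: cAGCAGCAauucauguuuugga
mmu-miR-503-5p: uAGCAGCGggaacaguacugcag
mmu-miR-351-5p: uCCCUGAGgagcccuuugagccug
mmu-miR-322-3p: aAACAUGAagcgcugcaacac
mmu-miR-542-3p: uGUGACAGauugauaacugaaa
mmu-miR-450a-5p: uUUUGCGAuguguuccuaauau
mmu-miR-450b-5p: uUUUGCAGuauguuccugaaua
mmu-miR-450b-3p: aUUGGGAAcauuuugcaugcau

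Within the cluster, no pair of these members shared a whole seed. The seeds of miR-322-5p and miR-503-5p differ only at their last base, A8G counted from the 5′ end. The sequences of miR-450a-5p and miR-450b-5p are the same at 15 of 22 bases and share their first 6 bases. miR-450a-5p is made by both Mir450-1 and Mir450-2, so its reads cannot be assigned to either hairpin. Outside the cluster, 9 other mouse miRNAs have the seed of miR-322-5p, of which 5 had counts here, and 4 have that of miR-351-5p, of which 2 had counts. The most abundant of these are shown beside their cluster relatives because miRNAs with one seed are expected to share targets.

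mmu-miR-16-5p: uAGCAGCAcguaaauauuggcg
mmu-miR-195a-5p: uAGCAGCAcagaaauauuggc
mmu-miR-125a-5p: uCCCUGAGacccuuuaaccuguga
mmu-miR-125b-5p: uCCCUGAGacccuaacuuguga

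The cluster was a minor part of the muscle miRNA pool. Levels are given as CPM, scaled over the 9 libraries. Together the 10 members made 199.7 to 229.3 CPM in WT mice, 298.6 to 331.7 CPM in Mbnl1KO mice and 236.4 to 275.2 CPM in Mbnl2KO mice. These summed levels were 215 ± 14.8 (SD, n = 3), 311.3 ± 17.9 and 253.7 ± 19.8, and no Mbnl1KO library overlapped a library of another group. The summed striated muscle miRNAs were lower in the Mbnl1KO libraries than in the WT libraries, as given above, and their part in this difference was not tested. In bulk muscle, fewer cells of a type and less RNA per cell cannot be told apart. miR-322-5p and miR-351-5p together gave 60.0% to 72.5% of the members' counts. Levels of different miRNAs are compared here as counts of mature molecules, with no correction for how readily each sequence is captured.

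In WT, the order of mean levels was miR-322-5p (78.6 ± 9.38 CPM), miR-351-5p (56.3 ± 8.04), miR-450a-5p (29.1 ± 2.14), miR-503-5p (17.4 ± 1.74), miR-322-3p (15.9 ± 4.13), miR-450b-3p (8.73 ± 2.52), miR-542-3p (6.20 ± 1.49) and miR-450b-5p (2.66 ± 0.809). Neighbours in this order whose ranges overlapped were miR-503-5p with miR-322-3p and miR-450b-3p with miR-542-3p. These 8 members had counts in every library. The other arms were near 0. miR-542-5p had 0, 1 and 1 counts in the WT libraries, 5, 1 and 2 in Mbnl1KO and 3, 1 and 3 in Mbnl2KO. miR-351-3p had 0 counts in all 3 WT libraries, which allows up to 3 counts or 0.505 to 0.650 CPM per library, and at most 1 count in any knockout library.

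**Figure D1:**
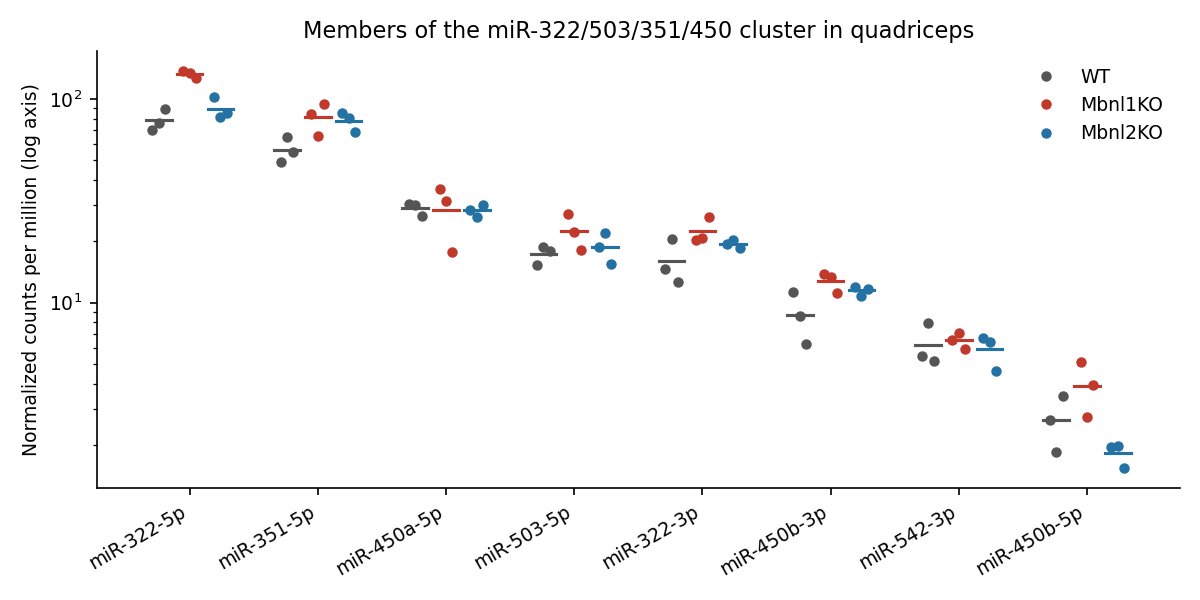
Level of the 8 members above the count filter in each of 9 libraries (points) with group means (bars), in normalized CPM on a log axis. The 3 Mbnl1KO libraries lie at 126.0 to 137.6 CPM for miR-322-5p, above every other library, whereas the groups of miR-450a-5p and miR-542-3p lie over one another.

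Loss of Mbnl1 was accompanied by a higher level of miR-322-5p, the most abundant member. It was at 70.6, 76.3 and 88.9 CPM in the WT mice and at 137.6, 134.4 and 126.0 CPM in the Mbnl1KO mice. The groups did not overlap. The log2 fold change was 0.69 ± 0.16 (SE; 95% interval 0.37 to 1.01), and edgeR gave an adjusted p of 0.00037. miR-322-5p was called with each of 14 alternative settings, with adjusted p between 1.14e-05 and 0.0104.

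The second member that rose was miR-351-5p. Its levels were 49.2, 65.0 and 54.6 CPM in WT and 84.2, 66.0 and 94.0 CPM in Mbnl1KO. The lowest Mbnl1KO library lay next to the highest WT library, and on the scale of the 6 libraries compared the groups overlapped. The log2 fold change was 0.46 ± 0.17 (edgeR, adjusted p = 0.0292). This call was held by 7 of 14 alternatives (adjusted p 0.00169 to 0.164) and was lost without WT replicate 1 (adjusted p = 0.153), WT replicate 3 (0.0873), Mbnl1KO replicate 1 (0.0553) or Mbnl1KO replicate 3 (0.164). It was also lost with no count filter (0.0701), with DESeq2's Wald test (0.0813) and in 1 further fit given with the alternatives.

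The other 6 tested members did not pass the test in Mbnl1KO against WT. The other product of Mir322, miR-322-3p, was at 14.7, 20.5 and 12.6 CPM in WT and 20.4, 20.8 and 26.3 CPM in Mbnl1KO (log2 fold change 0.42 ± 0.23, edgeR adjusted p = 0.147). miR-503-5p, which lies 200 bases beyond Mir322, was at 15.4, 18.7 and 18.0 CPM in WT and 27.4, 22.3 and 18.1 CPM in Mbnl1KO (0.31 ± 0.22, adjusted p = 0.274). For both, the lowest Mbnl1KO library lay within or at the edge of the WT range. In the distal group, miR-450b-3p was at 11.3, 8.59 and 6.29 CPM in WT and 13.8, 13.3 and 11.2 CPM in Mbnl1KO (0.46 ± 0.28, adjusted p = 0.203). miR-450b-5p rested on 11 to 16 counts per WT library and 15 to 38 per Mbnl1KO library (0.52 ± 0.37, adjusted p = 0.278). These 4 estimates stayed positive but moved when single libraries were left out. When a library was left out, that of miR-322-3p was 0.26 (without WT replicate 3) to 0.63 (without WT replicate 2) and that of miR-503-5p was 0.15 (without Mbnl1KO replicate 1) to 0.45 (without Mbnl1KO replicate 3). That of miR-450b-3p was 0.26 (without WT replicate 3) to 0.72 (without WT replicate 1), and that of miR-450b-5p was 0.29 (without WT replicate 2, or without Mbnl1KO replicate 1) to 0.73 (without Mbnl1KO replicate 2).

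The remaining members lay near 0. miR-450a-5p was at 30.4, 30.3 and 26.7 CPM in WT and 35.9, 31.6 and 17.7 CPM in Mbnl1KO, where replicate 3 was the lowest of all 9 libraries and replicate 1 the highest (log2 fold change −0.11 ± 0.21, adjusted p = 0.730). miR-542-3p, known to lower the apoptosis inhibitor survivin in tumour cells, was at 5.48, 7.91 and 5.20 CPM in WT and 6.57, 7.11 and 5.89 CPM in Mbnl1KO (−0.01 ± 0.31, adjusted p = 0.993). The sign of both depended on scaling: scaled to library totals alone, their log2 fold changes were 0.22 and 0.30.

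In all, 2 of the 8 tested members passed the threshold in Mbnl1KO against WT, beside 33.1% of all 317 miRNAs tested, so the share of the cluster that was called was no larger than the background. For 1 of 8 members the groups did not overlap, against 43.8% of all tested miRNAs. The median log2 fold change was 0.44 over the members and −0.01 over all miRNAs, and 6 of 8 members had a positive estimate. Of the 105 calls, 57.1% were higher in Mbnl1KO. With library totals the median of all miRNAs was 0.30, that of the members 0.74, 90.1% of calls were higher and 5 members were called, and with totals that left out miR-1a-3p 70.1% were higher and 2 members were called.

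**Figure D2:**
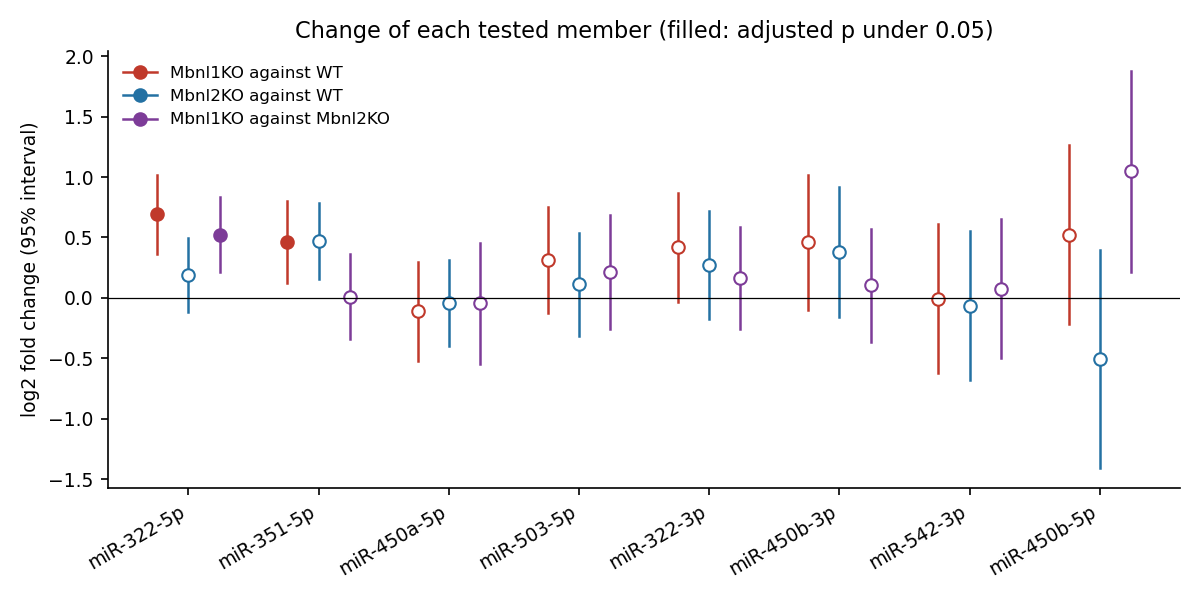
log2 fold change of each tested member in the 3 comparisons, with 95% intervals; filled points passed an adjusted p of 0.05 in edgeR. Only miR-322-5p and miR-351-5p are filled, and miR-450b-5p has the widest intervals.

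Loss of Mbnl2 gave no called member in edgeR's test (0 of 8, with 1 at an unadjusted p under 0.05, and 0 by DESeq2's Wald test), beside 5.8% of 293 miRNAs tested. The member nearest the threshold was miR-351-5p, at 84.9, 80.5 and 68.5 CPM in Mbnl2KO. All 3 libraries lay above the 3 WT libraries, and this was the only member whose groups did not overlap, against 23.2% of all tested miRNAs. Its log2 fold change was 0.47 ± 0.15 (95% interval 0.16 to 0.79), with an adjusted p of 0.0743. With a count filter of 50 the adjusted p was 0.0366, and without Mbnl2KO replicate 3 it was 0.0449.

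miR-322-5p was at 102.3, 81.0 and 85.1 CPM in Mbnl2KO, a range that overlapped WT (log2 fold change 0.19 ± 0.15, edgeR adjusted p = 0.527). Without Mbnl2KO replicate 1 the estimate was 0.0345. miR-322-3p (0.27 ± 0.22), miR-450b-3p (0.38 ± 0.26) and miR-503-5p (0.11 ± 0.21) had positive estimates and adjusted p between 0.498 and 0.824. When a library was left out these were 0.13 (without WT replicate 3) to 0.49 (without WT replicate 2), 0.19 (without WT replicate 3) to 0.63 (without WT replicate 1) and 0.0132 (without Mbnl2KO replicate 2) to 0.21 (without Mbnl2KO replicate 3). miR-450a-5p (−0.05 ± 0.17) and miR-542-3p (−0.06 ± 0.30) lay near 0, and both changed sign when single libraries were left out. miR-450b-5p was at 1.95, 1.97 and 1.55 CPM in Mbnl2KO against 2.65, 1.85 and 3.47 CPM in WT (−0.51 ± 0.43, edgeR adjusted p = 0.559). Its estimate was −0.30 without WT replicate 3. Its normalized counts averaged 9.79 in Mbnl2KO and 14.4 in WT, so it passed the filter of 10 only through the WT libraries. The median over the members was 0.15 and over all miRNAs 0.02. Of the 17 calls in this comparison 58.8% were higher in Mbnl2KO, and with library totals 71.4% of 7 were.

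The difference between the knockouts was tested directly, since both share the WT libraries. miR-322-5p was higher in Mbnl1KO than in Mbnl2KO by 0.52 ± 0.15 on the log2 scale (95% interval 0.21 to 0.83, edgeR adjusted p = 0.0151), and the groups did not overlap. The call was held in 12 of 14 alternatives and lost without Mbnl2KO replicate 2 (adjusted p = 0.0552) or replicate 3 (0.0908). Over these alternatives the difference was 0.43 to 0.82, the largest with library totals. miR-351-5p gave 0.01 ± 0.17, with an interval of −0.34 to 0.37 and an adjusted p of 0.961, so the interval holds differences of up to 0.37 in size and the levels are not shown to be alike. Its sign changed with scaling (−0.03 with DESeq2's size factors).

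miR-450b-5p was at 5.09, 2.74 and 3.93 CPM in Mbnl1KO, above all 3 Mbnl2KO libraries. The log2 difference was 1.05 ± 0.39 with an adjusted p of 0.0589, from 7 to 12 counts per Mbnl2KO library, and 3 of 13 alternatives called it: library totals, all 9 libraries in 1 fit, and the fit without Mbnl1KO replicate 2 (adjusted p = 0.0330). In this comparison 1 of 8 members was called beside 26.9% of 309 miRNAs, and groups did not overlap for 2 of 8 beside 42.7%. The median was 0.13 over the members and 0.07 over all miRNAs, and with library totals these were 0.42 and 0.36. The share of calls that were higher in Mbnl1KO was 56.6%, or 73.1% with totals that left out miR-1a-3p and 93.5% with library totals.

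**Figure D3:**
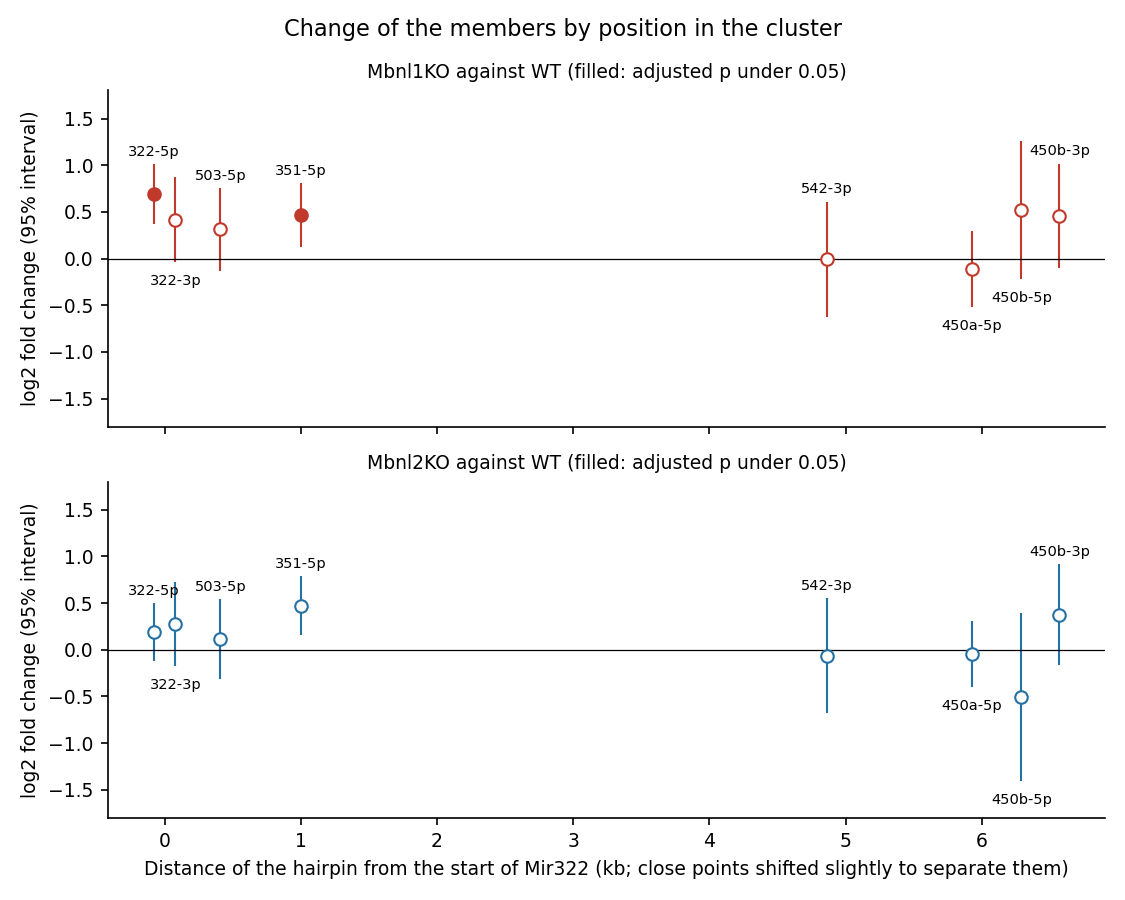
log2 fold change of each tested member against the distance of its hairpin from the start of Mir322, in kb, for Mbnl1KO (upper panel) and Mbnl2KO (lower panel) against WT, with 95% intervals and filled points for an adjusted p under 0.05. Both called members lie within 1.0 kb of the start, as do miR-322-3p and miR-503-5p, which were not called. miR-542-3p at 4.86 kb and miR-450a-5p beyond it lie near 0. The arms of the most distal hairpin, Mir450b at 6.27 kb, have estimates of 0.52 and 0.46 in Mbnl1KO with wide intervals.

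Whether members of the one cluster changed by unequal amounts was tested with edgeR's test of differences within a group of features, over every cluster of hairpins within 10 kb, a test chosen after the data were seen. The cluster was not called in Mbnl1KO against WT (adjusted p = 0.498, with 7.41% of 54 clusters called), in Mbnl2KO against WT (adjusted p = 0.201, 1.96% of 51) or between the knockouts (adjusted p = 0.157, 3.7% of 54). The member furthest from the rest in Mbnl1KO against WT was miR-450a-5p, lower by 0.58 on the log2 scale, with an adjusted p of 0.0629. In Mbnl2KO against WT the non-member miR-503-3p lay furthest, at 1.01 (adjusted p = 0.563). It also lay furthest between the knockouts, at −0.94 (adjusted p = 0.164). As a description over the 9 libraries, miR-450a-5p also followed the mean of the tested members least (Pearson r = 0.17), and miR-503-5p followed it most (0.86). Each member is part of that mean, and all share library, depth and group.

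The arm that dominated differed between hairpins. The 5p arm gave 78.8% to 87.6% of miR-322 counts and 79.1% to 93.3% of miR-503 counts in the individual libraries, and for miR-351 the 3p arm had at most 1 count in any library. The 3p arm dominated for miR-542, where 5p gave 0% to 12.5% of 24 to 54 counts, and for miR-450b, where 5p gave 11.7% to 35.6%. So miR-450a and miR-450b, whose 5p arms resemble one another, had opposite dominant arms: miR-450a-5p had 117 to 268 counts per library, against 4 to 30 for miR-450a-1-3p and 0 to 5 for miR-450a-2-3p. The sequence of miR-450a-1-3p differs from that of miR-450b-3p only by G19A and C20A.

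The 5p share of miR-322 was 83.1% ± 4.42 in WT, 85.5% ± 2.39 in Mbnl1KO and 82.1% ± 2.03 in Mbnl2KO, with overlapping ranges. Both arms of this hairpin had positive estimates in Mbnl1KO, and the 5p change exceeded the 3p change by 0.27 ± 0.22 on the log2 scale, which was not called (edgeR arm test, adjusted p = 0.599, with 6.49% of 77 hairpins called). It stayed positive but moved when single libraries were left out, at 0.0269 without WT replicate 2 and 0.50 without WT replicate 3. The difference was −0.08 ± 0.23 in Mbnl2KO against WT (adjusted p = 0.874, 0% of 67 hairpins called) and 0.36 ± 0.19 between the knockouts (adjusted p = 0.257, 8% of 75 called). The call of miR-322-5p without one for miR-322-3p is therefore not shown to be a difference between the arms.

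For miR-503, the 5p share was 87.9%, 93.3% and 89.2% in WT, 89.9%, 89.7% and 86.3% in Mbnl1KO and 79.1%, 83.1% and 79.5% in Mbnl2KO. All Mbnl2KO libraries lay below all others. Of all hairpins with both arms tested, the 5p shares of the groups did not overlap for 14.9% in Mbnl2KO against WT, 32% between the knockouts and 23.4% in Mbnl1KO against WT. The group means were 90.1% ± 2.81, 88.6% ± 2.00 and 80.6% ± 2.2, and the exact two-sided permutation test gave p = 0.1 against either group, the smallest that 3 against 3 allows. The other arm, miR-503-3p, which is no member, had 12, 8 and 10 counts in WT and 28, 27 and 18 in Mbnl2KO (log2 fold change 1.25 ± 0.38, edgeR adjusted p = 0.0567). Across hairpins the arm test did not call it. The 5p change minus the 3p change was −1.14 ± 0.37 in Mbnl2KO against WT (adjusted p = 0.228) and 0.91 ± 0.35 between the knockouts (adjusted p = 0.126). In Mbnl1KO against WT it was −0.22 ± 0.37 (adjusted p = 0.889).

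For miR-450b, the 5p share was 19.0%, 17.7% and 35.6% in WT, 27.0%, 17.0% and 26% in Mbnl1KO and 14.1%, 15.4% and 11.7% in Mbnl2KO. Here too all Mbnl2KO libraries were the lowest (exact two-sided permutation p = 0.1 against either group), beside the same 14.9% and 32% of hairpins. With 45 to 141 counts per library the 95% Clopper-Pearson intervals of single libraries were wide, for example 21.9% to 51.2% in WT replicate 3, and they cover counting error only. The arm difference was −0.88 ± 0.43 in Mbnl2KO against WT (edgeR arm test, adjusted p = 0.378), where the 5p arm passed the count filter only through WT. It was 0.94 ± 0.35 between the knockouts (adjusted p = 0.126) and 0.06 ± 0.39 in Mbnl1KO against WT (adjusted p = 0.963). The first was −0.49 without WT replicate 3 (adjusted p = 0.868), and the second was called only without Mbnl1KO replicate 2, of 12 alternatives (1.16, adjusted p = 0.0366).

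**Figure D4:**
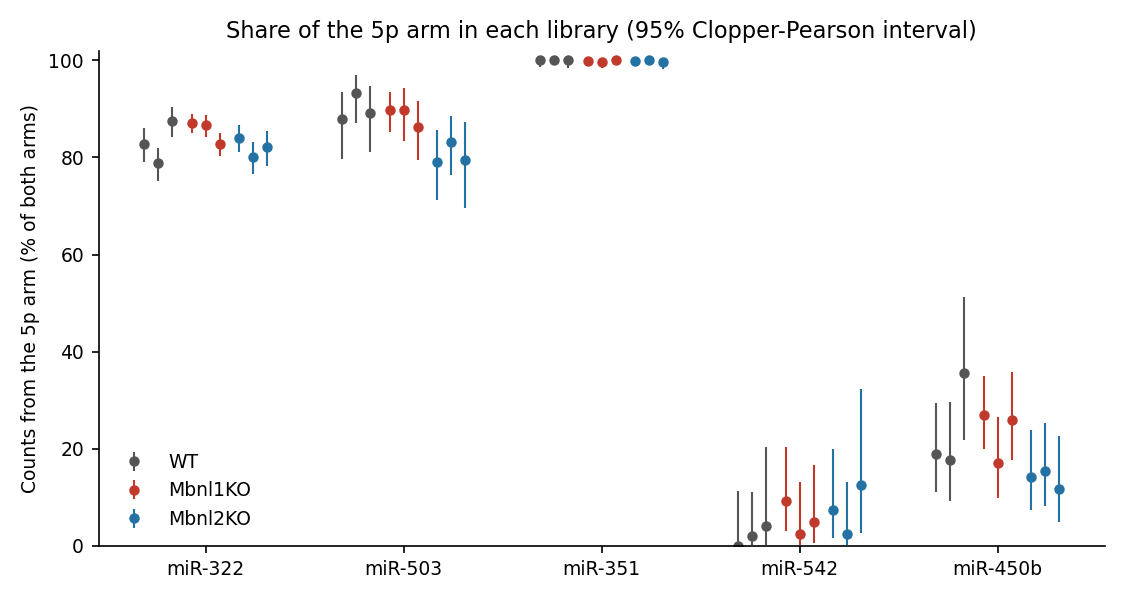
Counts from the 5p arm as a percentage of the counts of both arms, for 5 hairpins in each of 9 libraries, with 95% Clopper-Pearson intervals. miR-322, miR-503 and miR-351 lie high and miR-542 and miR-450b low, and the Mbnl2KO libraries are the lowest for miR-503 and miR-450b.

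In Mbnl1KO against WT, where 33.1% of all tested miRNAs were called, none of the 5 measured relatives that share the seed of miR-322-5p passed the test. Of these, miR-16-5p, which had 94036 counts over the 9 libraries against 5313 for miR-322-5p, gave 0.07 ± 0.14, and miR-195a-5p gave 0.34 ± 0.15 (edgeR adjusted p = 0.0720). miR-15b-5p, miR-497a-5p and miR-15a-5p gave 0.07, 0.35 and 0.31. Of the relatives of miR-351-5p, miR-125b-5p fell by 0.42 ± 0.15 (adjusted p = 0.0178) while miR-125a-5p gave −0.07 ± 0.15. Between the knockouts miR-125b-5p was also lower in Mbnl1KO (−0.43 ± 0.12, adjusted p = 0.0133). Over the 9 libraries miR-351-5p had 3806 counts, against 203573 for miR-125a-5p and 154684 for miR-125b-5p, so the cluster supplied a small part of the miRNAs with either seed. miR-542-5p shares its seed with miR-6966-5p, and miR-450b-3p with miR-450a-1-3p (log2 fold change 0.42 ± 0.48 in Mbnl1KO against WT).

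**Figure D5:**
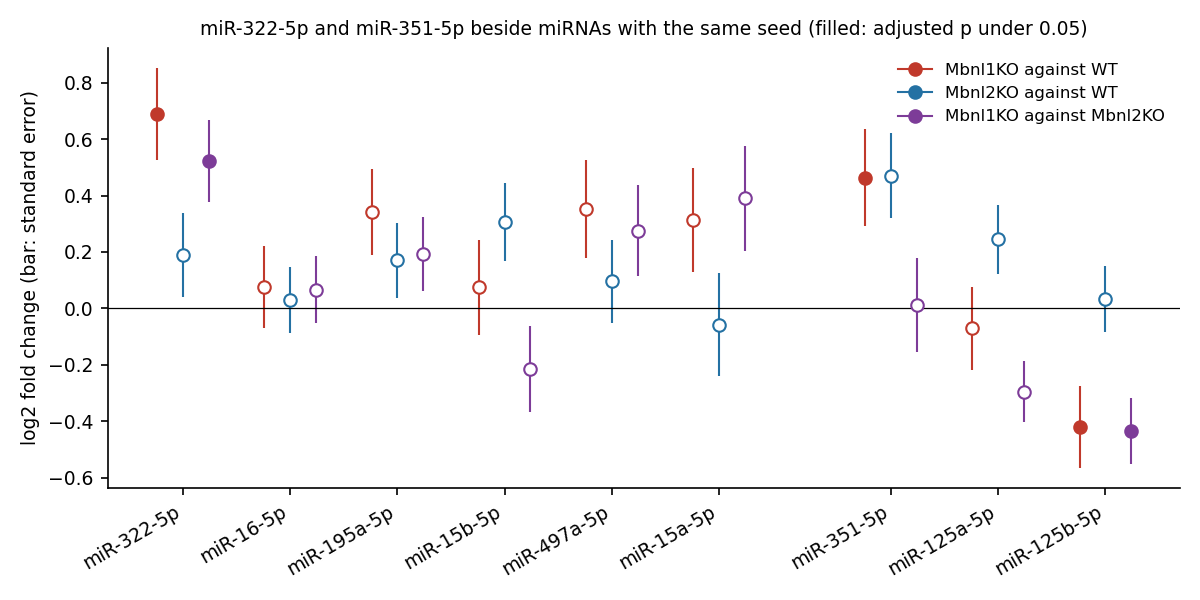
log2 fold change with standard error of miR-322-5p and miR-351-5p beside miRNAs of other loci with the same seed, in the 3 comparisons; filled points passed an adjusted p of 0.05 in edgeR. In Mbnl1KO against WT, miR-322-5p lies above its relatives, and miR-351-5p (0.46) and miR-125b-5p (−0.42) lie on opposite sides of 0, while in Mbnl2KO against WT both of the latter lie above 0 (0.47 and 0.03).

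Among 17 other miRNAs with roles in myoblast differentiation, 14 were tested in Mbnl1KO against WT, of which 3 rose and 2 fell, with a median log2 fold change of −0.01. These 5 of 14 calls stand beside 33.1% of all tested miRNAs, a share near the background. miR-206-3p, which promotes myoblast differentiation, rose by 1.93 ± 0.15, and miR-133b-3p and miR-27b-3p by 0.71 and 0.72. miR-378a-3p, which relieves repression of MyoD, fell by 1.30 ± 0.15, and the other that fell was miR-125b-5p. In Mbnl2KO against WT only miR-206-3p of this list was called (0.89 ± 0.14), beside 5.8% of all tested miRNAs. The miRNAs most like the mean of the tested members over the 9 libraries, of 312 candidates, were miR-412-5p (Pearson r = 0.89), miR-23a-3p (0.86) and miR-370-3p (0.85). Of the candidates, 13 had r above 0.8. All share the libraries, their depth and the groups with the members, so differences between groups enter r.

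miRNAs known from other cells in the muscle were called in both directions in Mbnl1KO against WT, where 33.1% of all tested miRNAs were called. Of 8 miRNAs known from blood and immune cells, 6 were tested, and 3 fell (miR-223-3p, miR-142a-5p and miR-146a-5p) while miR-155-5p rose by 0.86 ± 0.16. Summed, they made 470.9 to 551.2 CPM in WT mice, 485 to 597.1 CPM in Mbnl1KO mice and 513.9 to 554.5 CPM in Mbnl2KO mice, and miR-142a-3p was listed at 0. Of 8 miRNAs known from vessels and connective tissue, 6 were tested, 1 rose (miR-140-5p) and 1 fell (miR-199a-3p). Summed, they made 6306 to 6674 CPM in WT mice, 6002 to 8671 CPM in Mbnl1KO mice and 7749 to 8752 CPM in Mbnl2KO mice, and miR-126a-3p and miR-126a-5p were listed at 0. In Mbnl2KO none of the first list and 1 of the second (miR-143-3p, higher) was called, beside 5.8% of all tested miRNAs. The part of these cells in the levels of the members, and the cause of the rows listed at 0, were not tested.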

How the data were processed

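The authors deposited raw counts, 1 row for each of 1966 mature miRNAs in 9 libraries made with the NEXTflex Small RNA-Seq Kit from 1 mouse each. Per the study's methods, adapters were clipped, identical reads collapsed, reads aligned in sense to miRBase precursors without mismatches and those within a mature miRNA summed. Whether this made the deposited counts is not given in the sources used here. Loci with the same mature miRNA share 1 row.

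The members and lists were chosen with earlier results of these data known. For each comparison, edgeR 4.0.16 in R 4.3.3 was run on 6 libraries (robust quasi-likelihood test, TMM scaling). Only miRNAs whose normalized counts averaged more than 10 were tested, p-values were adjusted over all of them by Benjamini-Hochberg, and 0.05 was the threshold for a call. Standard errors are the log2 fold change over the root of F. Arms and clusters were compared in the same fits with diffSpliceDGE. Named miRNAs were the members, their other arms, the 2 most abundant seed relatives of each, and the 3 miRNAs whose log2 levels correlated best (Pearson) with the mean of the tested members over the 9 libraries; the lists and other relatives with counts are given as counts or values.

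Alternatives were DESeq2 size factors, library totals with or without miR-1a-3p, no filter, a filter of 50, all 9 libraries in 1 fit, a block for the replicate number, leaving out single libraries, 0.5 added to both arms, and DESeq2 1.42.0. Totals of 4761271 to 6277018 counts limit precision for members with few counts. Figures were drawn with matplotlib 3.10.9.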

Additional observations from a re-analysis of the deposited data

How the results depend on the processing

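The number of members called in Mbnl1KO against WT was 2, and it was 5 with library totals (miR-322-5p, miR-322-3p, miR-351-5p, miR-450b-3p and miR-503-5p), 1 with no filter, 1 with the replicate block (miR-351-5p then had an adjusted p of 0.0606 in edgeR), 1 with DESeq2's Wald test and 1 to 2 when a library was left out. miR-322-5p was among the calls in each of these. In Mbnl2KO against WT the number was 0, and it was 1 (miR-351-5p) with a filter of 50 and 0 to 1 when a library was left out. Between the knockouts it was 1, and it was 2 with library totals, 2 with all 9 libraries in 1 fit and 0 to 2 when a library was left out. Over all miRNAs, 17 were called in Mbnl2KO against WT, 7 with library totals and 6 to 23 when a library was left out. Signs changed as follows, with no call on either side. In Mbnl1KO against WT, miR-450a-5p gave 0.22 with library totals and −0.31 to 0.14 when a library was left out. miR-542-3p gave 0.30 with library totals, 0.0624 with totals that left out miR-1a-3p, 0.0198 with the replicate block and −0.13 to 0.19 when a library was left out. The arm difference of miR-450b was −0.0036 with the replicate block and −0.17 to 0.45 when a library was left out, and that of miR-503 was −0.42 to 0.0380. In Mbnl2KO against WT, leaving out a library gave −0.11 to 0.0286 for miR-450a-5p, −0.20 to 0.15 for miR-542-3p and −0.33 to 0.15 for the arm difference of miR-322. Between the knockouts, miR-351-5p gave −0.0350 with DESeq2's size factors, −0.0211 with a filter of 50, −0.0349 with DESeq2's Wald test and −0.12 to 0.0988 when a library was left out. There miR-450a-5p gave 0.27 with library totals, 0.0334 with totals that left out miR-1a-3p and −0.25 to 0.21 when a library was left out, and miR-542-3p −0.11 to 0.15. The cause of these changes was not tested. Replicates of the same number in different groups deviated from their group means with correlations between −0.15 and 0.10. In Mbnl2KO against WT, replicates 2 and 3 correlated best with the WT library of their own number (0.10 and 0.0813). Whether mice of the same number shared a litter or batch was not tested. DESeq2's test was not run for the arms. miR-450b-5p, with 7 to 38 counts per library, had the widest errors of the tested members.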
